A study of Saccharomyces cerevisiae with 15 samples.

Results

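The mitochondrial protein import machinery of *Saccharomyces cerevisiae* was followed as 32 nuclear genes out of 6224 genes on the array. The genes were taken from a list of symbols and found through their systematic names. Each was measured by 1 probe, and each of the 32 probes was well above background on all 15 arrays. RNA came from the wine yeast strain QA23, grown in YPD into exponential phase with or without melatonin and then kept for 1 h with or without H2O2. Control cells had neither agent, Mel cells had 5 µM melatonin, H cells had 2 mM H2O2, MelH cells had 5 µM melatonin and 2 mM H2O2, and 25MelH cells had 25 µM melatonin and 2 mM H2O2. There were 3 arrays per condition, which the study describes as biological replicates. All 5 conditions share the strain, the medium and the harvest time. Melatonin at 25 µM without H2O2 was not among the conditions. The comparison 25MelH vs. Control differs in both agents, so its changes cannot be assigned to H2O2 apart from melatonin. It is listed among the stress comparisons below with that limit.

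Nearly all mitochondrial proteins are encoded in the nucleus, made in the cytosol and carried into the organelle by a set of membrane complexes. The TOM complex is the common entry gate of the outer membrane. From there TIM23 and its motor take proteins with a cleavable presequence into the matrix, TIM22 inserts metabolite carriers into the inner membrane, the small Tim chaperones escort hydrophobic proteins across the intermembrane space, Mia40 and Erv1 trap small cysteine-rich proteins by oxidation, and SAM builds barrel proteins into the outer membrane. In budding yeast the subunits that form these channels are essential for growth.

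Levels are given as log2 intensity relative to the 75th percentile of the same array. They compare arrays for 1 gene and not genes with each other. Changes are mean differences of 3 against 3 arrays, on the log2 scale, with the standard error (SE) that limma gave. Calls required an adjusted p (Benjamini-Hochberg, over the 6224 genes) below 0.05. The 75th percentile itself was 4195 to 5938 intensity units on arrays of Control and Mel and 2265 to 3578 on the stressed arrays, so every level is relative to a reference that was dimmer with H2O2. Member intensities lay between 256.7 and 44570 units, 88.4% to 96.8% of genes were well above background, and 0 spots were saturated. Over the 32 genes the median SD within a condition was 0.08 in Control, 0.14 in Mel, 0.04 in H, 0.08 in MelH and 0.06 in 25MelH.

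The labels were read against 5 genes known to respond to peroxide before the import genes were described. *SRX1*, *TRX2*, *TSA1* and *GPX2* were higher on each of the 9 stressed arrays than on each of the 6 arrays without stress, and *CTT1* was not. The scanner tables thus separated by their stress labels. The deposited matrix of normalised values did not. In its columns named H these 4 genes lay below its Control columns or overlapped them, with *SRX1* at −3.41 to −2.49 against −3.08 to −2.41. In its columns named Mel they lay above, with *SRX1* at 0.40 to 0.83. The scanner tables, labelled as deposited, were the source of all values that follow. These 4 genes were read only to tell stressed from unstressed arrays.

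With H2O2 the import genes did not move as a block at the 75th percentile scaling, where most of them fell while a few rose. Another scaling used the spike-in RNAs, control transcripts with probes of their own on the array. With it all 32 were called lower in both comparisons against Control and 31 in MelH vs. Mel. Calls in either direction over all genes were then 5956 in H vs. Control, 6077 in 25MelH vs. Control and 5278 in MelH vs. Mel. The spike-in counts thus do not set the import genes apart. At the 75th percentile scaling 21 members were called lower and 5 higher in H vs. Control. That is 65.6% and 15.6% of the 32, against 41.1% of all genes called lower and 27.3% called higher. Their median log2 change was −0.34, and that of all genes −0.09. In MelH vs. Mel, which shares no array with H vs. Control, 14 members were lower and 4 higher (43.8% and 12.5%), against 31.5% and 21.1% of all genes, with medians of −0.19 and −0.07. Without MelH replicate 1 that count of 18 calls was 11, and the calls over all genes went from 3275 to 2324. In 25MelH vs. Control, which uses the same Control arrays as H vs. Control, 19 were lower and 5 higher (59.4% and 15.6%), against 38.9% and 26.7% of all genes, with medians of −0.32 and −0.08. These shares are descriptions of the list, which was not tested against other genes.

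The direction of the counts rests on the scaling. With each array centred on its median gene, the split of higher to lower became 10 to 13 in H vs. Control, 11 to 8 in MelH vs. Mel and 13 to 12 in 25MelH vs. Control. Calls in either direction over all genes were then 4409, 3594 and 4282. Centring moved the median of all genes in H vs. Control from −0.09 to 0.17, and spike-in scaling moved it to −1.51. Relative to the median of all genes, the members' median in H vs. Control was −0.25 under these 3 scalings, which shift all genes of an array alike, −0.39 with normexp background correction and −0.42 with quantile normalization. The arrays lay on 2 slides that both held all conditions. With slide as a block 25 members and 4158 of all genes were called in H vs. Control. Within slide 1, with 2 Control arrays and 1 H array, the members' median change was −0.32, against −0.09 over all genes. Within slide 2, with 1 Control array and 2 H arrays, these medians were −0.29 and −0.10. Fewer members and fewer of all genes were called within each slide than on both slides together. These within-slide fits took the spread from all conditions on the slide and assume that a lone array varies like the others.

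**Figure D1:**
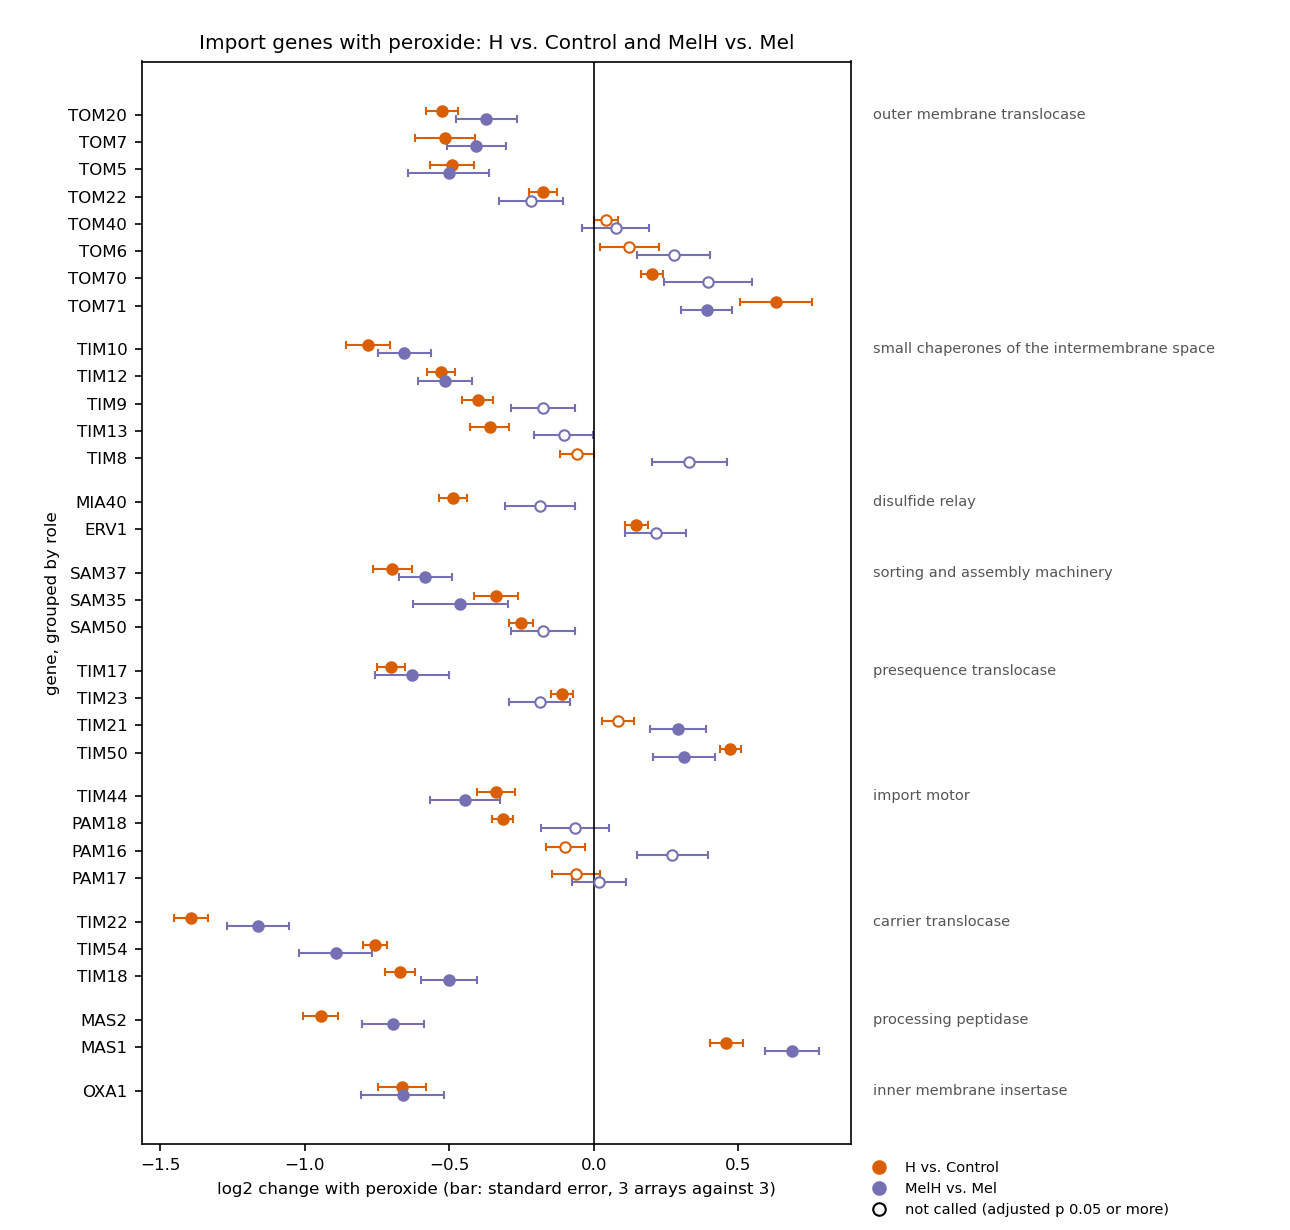
Log2 change with H2O2 of the 32 import genes, grouped by role, in H vs. Control and MelH vs. Mel; points are differences of means of 3 and 3 arrays at the 75th percentile scaling, bars are standard errors, and open points were not called. The 3 carrier translocase genes lie left of 0 in both comparisons, and *MAS1* and *MAS2* lie on opposite sides of it; with spike-in scaling all points move left and all 32 genes of H vs. Control fall below 0.

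H vs. Control and MelH vs. Mel called 17 members (53.1%) in the same direction and 0 in opposite directions, against 2943 of all genes (47.3%) in the same direction and 3 in opposite directions, so the share of members was near that of all genes. *TOM71*, *TIM50* and *MAS1* were higher in both (3 genes, 9.38% against 17.6% of all genes), and *TOM5*, *TOM7*, *TOM20*, *TIM10*, *TIM12*, *SAM35*, *SAM37*, *TIM17*, *TIM44*, *TIM18*, *TIM22*, *TIM54*, *MAS2* and *OXA1* were lower in both (14 genes, 43.8% against 29.7% of all genes). The same 17 genes had all 9 stressed arrays on one side of all 6 unstressed arrays, 3 above and 14 below, where 18.9% of all genes lay above and 30.7% below. *TOM70* and *ERV1* were called higher and *TOM22*, *TIM9*, *TIM13*, *MIA40*, *SAM50*, *TIM23* and *PAM18* lower in H vs. Control and not in MelH vs. Mel, and *TIM21* was called higher in MelH vs. Mel and not in H vs. Control. The test of the difference between these comparisons is the contrast given further on, in which 0 members were called. *TOM6*, *TOM40*, *TIM8*, *PAM16* and *PAM17* were called in neither.

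The entry gate of the outer membrane showed both directions. Of its 8 genes, H vs. Control had 4 called lower and 2 higher, and both MelH vs. Mel and 25MelH vs. Control had 3 lower and 1 higher. *TOM40* encodes the channel. Its level was 1.04, 1.00 and 1.04 in Control, 1.10, 0.92 and 0.88 in Mel, 1.11, 1.07 and 1.02 in H, 1.16, 0.89 and 1.07 in MelH, and 1.12, 1.02 and 0.93 in 25MelH. The conditions overlapped, and in H vs. Control the difference was 0.04 with a 95% interval of −0.06 to 0.14. *TOM22*, the central receptor that also holds the complex together, changed by −0.18 (SE 0.05, adjusted p = 0.0196), and this call was lost in 8 of 18 alternatives.

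The receptors that dock preproteins went different ways. Tom20 recognises presequences, and *TOM20* fell by 0.53 (SE 0.06, adjusted p = 0.000411), 0.37 (SE 0.11, adjusted p = 0.0228) and 0.45 (SE 0.06, adjusted p = 0.000913) in the 3 stress comparisons, in the order above. Tom70 and its paralogue Tom71 receive hydrophobic precursors handed over by cytosolic chaperones. The level of *TOM70* was 0.52, 0.53 and 0.55 in Control and 0.78, 0.71 and 0.72 in H. It was 0.57, 0.20 and 0.17 in Mel, 0.81, 0.48 and 0.84 in MelH, and 0.68, 0.66 and 0.56 in 25MelH. The H arrays lay above the Control arrays without overlap, while MelH overlapped Mel. *TOM70* rose by 0.20 (SE 0.04, adjusted p = 0.00453) in H vs. Control, a call lost in 4 of 18 alternatives, with a fall under spike-in scaling. The differences of 0.39 in MelH vs. Mel (adjusted p = 0.0622) and 0.10 in 25MelH vs. Control (adjusted p = 0.137) did not pass.

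*TOM71* rose in all 3 stress comparisons at the 75th percentile scaling, and the rise turned to a fall with spike-in scaling. Its level was −0.82, −0.39 and −0.38 in Control, −0.32 on each of the 3 Mel arrays, 0.09, 0.08 and 0.12 in H, 0.09, 0.12 and 0.01 in MelH, and 0.08, 0.08 and 0.13 in 25MelH. All stressed arrays were above all unstressed ones, and 1 Control array was far below the other Control arrays. The change was 0.63 (SE 0.13, adjusted p = 0.00567) in H vs. Control, 0.39 (SE 0.09, adjusted p = 0.00883) in MelH vs. Mel and 0.63 (SE 0.13, adjusted p = 0.00565) in 25MelH vs. Control.

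The small Tom proteins, which help assemble and stabilise the complex, did not change alike. *TOM5* fell by 0.49 (SE 0.08, adjusted p = 0.002) and *TOM7* by 0.51 (SE 0.10, adjusted p = 0.00576) in H vs. Control, each with every H array below every Control array. *TOM6* differed by 0.12 in H vs. Control (adjusted p = 0.328), 0.28 in MelH vs. Mel (adjusted p = 0.102) and 0.27 in 25MelH vs. Control (adjusted p = 0.0745), and was not called.

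Among the 5 small Tim chaperones 4 were called lower in H vs. Control, 2 in MelH vs. Mel and 4 in 25MelH vs. Control, and 0 were higher. Tim9 and Tim10 form a hexamer that carries hydrophobic precursors across the aqueous space, and Tim12 joins it at the TIM22 complex. The level of *TIM10* was 1.54, 1.49 and 1.29 in Control, 1.39, 1.42 and 1.39 in Mel, 0.69, 0.69 and 0.61 in H, 0.67, 0.84 and 0.73 in MelH, and 0.67, 0.71 and 0.76 in 25MelH. Stressed and unstressed arrays were apart, and *TIM10* fell by 0.78 (SE 0.08, adjusted p = 0.000311), 0.66 (SE 0.09, adjusted p = 0.00112) and 0.73 (SE 0.08, adjusted p = 0.000449).

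Its partner *TIM9* had levels of 1.86, 1.76 and 1.69 in Control and 1.40, 1.35 and 1.37 in H. It had 1.66, 1.78 and 1.45 in Mel, 1.47, 1.48 and 1.42 in MelH, and 1.27, 1.40 and 1.45 in 25MelH. *TIM9* was lower in H than in Control without overlap, but MelH overlapped Mel. The change was −0.40 (SE 0.05, adjusted p = 0.00116) in H vs. Control, −0.40 (SE 0.07, adjusted p = 0.00362) in 25MelH vs. Control, and −0.18 (SE 0.11, adjusted p = 0.219) in MelH vs. Mel. The difference *TIM9* minus *TIM10* within an array, with its Control mean set to 0, was −0.06 to 0.07 in Control, −0.27 to 0.03 in Mel, 0.33 to 0.43 in H, 0.31 to 0.47 in MelH and 0.27 to 0.36 in 25MelH. The stressed arrays were above the unstressed arrays on this difference, which a constant shift of an array's log2 values leaves as it is.

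*TIM12* fell by 0.53 (SE 0.05, adjusted p = 0.00023) in H vs. Control, 0.51 in MelH vs. Mel and 0.56 in 25MelH vs. Control. Tim8 and Tim13 form the other chaperone hexamer, which helps import Tim23. *TIM13* fell by 0.36 (SE 0.07, adjusted p = 0.00442) in H vs. Control and was not called in MelH vs. Mel (−0.10, adjusted p = 0.42). *TIM8* was called in none of the stress comparisons, with differences of −0.06 in H vs. Control, 0.33 in MelH vs. Mel and 0.05 in 25MelH vs. Control.

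The genes of the disulfide relay parted. Mia40 is the oxidoreductase that binds incoming cysteine-rich proteins, and Erv1 is the sulfhydryl oxidase that recharges it. The level of *MIA40* was 0.19, 0.06 and 0.16 in Control, 0.16, −0.14 and −0.10 in Mel, −0.34, −0.35 and −0.36 in H, −0.08, −0.32 and −0.25 in MelH, and −0.22, −0.26 and −0.32 in 25MelH. The H and 25MelH arrays were below Control without overlap, and MelH overlapped Mel. *MIA40* fell by 0.49 (SE 0.05, adjusted p = 0.000323) in H vs. Control and by 0.40 (SE 0.06, adjusted p = 0.0015) in 25MelH vs. Control, and the value in MelH vs. Mel was −0.19 (SE 0.12, adjusted p = 0.236).

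*ERV1* rose slightly, by 0.15 (SE 0.04, adjusted p = 0.0192) in H vs. Control and 0.21 (SE 0.05, adjusted p = 0.00734) in 25MelH vs. Control, but the call in H vs. Control was lost in 7 of 18 alternatives and the rise became a fall with spike-in scaling. *MIA40* minus *ERV1* within an array lay between −0.09 and 0.06 in Control, −0.41 and −0.04 in Mel, −0.66 and −0.59 in H, −0.68 and −0.43 in MelH, and −0.65 and −0.59 in 25MelH. Each stressed array was below each unstressed array on this difference.

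The SAM genes were all lower in H vs. Control. Sam50 is the barrel-inserting channel, and Sam35 and Sam37 sit on its cytosolic side. The level of *SAM37* was 0.08, 0.14 and −0.02 in Control, 0.08, 0.03 and 0.16 in Mel, −0.61, −0.73 and −0.56 in H, −0.55, −0.42 and −0.51 in MelH, and −0.46, −0.49 and −0.51 in 25MelH. Stressed arrays were below unstressed arrays without overlap, and *SAM37* fell by 0.70 (SE 0.07, adjusted p = 0.000307), 0.58 (SE 0.09, adjusted p = 0.00197) and 0.55 (SE 0.06, adjusted p = 0.000426). *SAM35* fell by 0.34 in H vs. Control (SE 0.08, adjusted p = 0.00935) and 0.46 in MelH vs. Mel (SE 0.16, adjusted p = 0.048), the latter call being lost in 10 of 18 alternatives. The channel gene *SAM50* fell less, by 0.25 (SE 0.04, adjusted p = 0.00234) in H vs. Control, and with median centring its sign turned, as did those of *TOM22* and *TIM23*.

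In the presequence translocase the receptor rose and a channel subunit fell. Tim50 receives presequences at the outer face of the inner membrane, Tim23 and Tim17 are the membrane-embedded core, and Tim21 links the complex to TOM and to the respiratory chain. The level of *TIM50* was 1.86, 1.88 and 1.92 in Control, 1.90, 1.84 and 2.11 in Mel, 2.38, 2.34 and 2.36 in H, 2.19, 2.28 and 2.32 in MelH, and 2.25, 2.34 and 2.33 in 25MelH. Every stressed array was above every unstressed array. The rise was 0.47 (SE 0.04, adjusted p = 0.000146), 0.31 (SE 0.11, adjusted p = 0.043) and 0.42 (SE 0.05, adjusted p = 0.000734), and with spike-in scaling it was a fall. The call in MelH vs. Mel was lost in 11 of 18 alternatives, those with the slide or the replicate number as a block among them.

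*TIM17* moved the other way. Its level was 2.83, 2.71 and 2.83 in Control, 2.81, 2.55 and 2.99 in Mel, 2.05, 2.11 and 2.11 in H, 2.15, 2.20 and 2.13 in MelH, and 2.13, 2.20 and 2.09 in 25MelH. Stressed and unstressed arrays were apart, and *TIM17* fell by 0.70 (SE 0.05, adjusted p = 8.77e-05), 0.63 (SE 0.13, adjusted p = 0.00577) and 0.65 (SE 0.06, adjusted p = 0.000224). *TIM50* minus *TIM17* within an array, with the Control mean at 0, was −0.07 to 0.07 in Control, −0.0026 to 0.19 in Mel, 1.14 to 1.23 in H, 0.95 to 1.10 in MelH and 1.02 to 1.14 in 25MelH.

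*TIM23*, the other core subunit, stayed close to its Control level. It was 1.32, 1.33 and 1.32 in Control, 1.37, 1.30 and 1.33 in Mel, 1.25, 1.22 and 1.17 in H, 1.18, 1.28 and 0.99 in MelH, and 1.26, 1.23 and 1.35 in 25MelH. The change of −0.11 in H vs. Control was just past the threshold (SE 0.04, adjusted p = 0.0453) and this call was lost in 14 of 18 alternatives. *TIM21* was 0.08 higher in H vs. Control without passing (adjusted p = 0.219), and it rose by 0.29 (SE 0.10, adjusted p = 0.0369) in MelH vs. Mel and 0.20 (SE 0.06, adjusted p = 0.0298) in 25MelH vs. Control, both turning to falls with spike-in scaling. These calls were lost in 11 of 18 and 9 of 19 alternatives, the replicate block among them in both.

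The import motor pulls presequence proteins into the matrix with the Hsp70 Ssc1, which Tim44 anchors at the channel and which the J-protein Pam18 drives under the restraint of Pam16. Of its 4 genes *TIM44* and *PAM18* were called lower in H vs. Control. *TIM44* fell by 0.34 (SE 0.07, adjusted p = 0.00511), 0.45 (SE 0.12, adjusted p = 0.0182) and 0.57 (SE 0.09, adjusted p = 0.00262) in the 3 stress comparisons. *PAM18* fell by 0.32 (SE 0.04, adjusted p = 0.000714) and 0.40 (SE 0.05, adjusted p = 0.000908) against Control, and was not called in MelH vs. Mel (−0.06, adjusted p = 0.663). *PAM16* and *PAM17* were called in none of these comparisons.

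All 3 genes of the carrier translocase were called lower in all 3 stress comparisons, of which 25MelH vs. Control also differs in melatonin. *TIM22* had the largest fall of the 32 genes. Tim22 is the channel through which carriers enter the inner membrane. The level of *TIM22* was −1.73, −1.92 and −1.78 in Control and −1.93, −1.99 and −2.20 in Mel. With stress it was −3.20, −3.22 and −3.19 in H, −3.20, −3.14 and −3.25 in MelH, and −3.14, −3.20 and −2.84 in 25MelH. The 9 stressed arrays lay far below the 6 unstressed arrays. *TIM22* fell by 1.39 (SE 0.06, adjusted p = 1.92e-05) in H vs. Control, 1.16 (SE 0.11, adjusted p = 0.000165) in MelH vs. Mel and 1.25 (SE 0.11, adjusted p = 0.000202) in 25MelH vs. Control.

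Its fall in H vs. Control was 1.37 within slide 1 and 1.43 within slide 2. It was smaller, at 1.01 to 1.14, with normexp background correction, median centring and quantile normalization, and larger, at 2.82, with spike-in scaling. Its signal was low, at 256.7 to 376.2 intensity units on the stressed arrays, and well above background on each. *TIM23* minus *TIM22*, the channels of the presequence and the carrier pathway, was −0.08 to 0.12 in Control, 0.15 to 0.40 in Mel, 1.23 to 1.32 in H, 1.11 to 1.29 in MelH and 1.06 to 1.30 in 25MelH.

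*TIM54*, a subunit that supports the TIM22 complex, had levels of 0.08, 0.09 and 0.06 in Control, 0.04, −0.04 and 0.36 in Mel, −0.62, −0.70 and −0.72 in H, −0.80, −0.69 and −0.82 in MelH, and −0.91, −0.78 and −0.84 in 25MelH. The stressed arrays were all lower. *TIM54* fell by 0.76 (SE 0.04, adjusted p = 4.25e-05), 0.89 (SE 0.13, adjusted p = 0.00115) and 0.92 (SE 0.05, adjusted p = 4.47e-05). *TIM18*, a further subunit of the complex, fell by 0.67 (SE 0.05, adjusted p = 0.000129), 0.50 (SE 0.10, adjusted p = 0.00463) and 0.62 (SE 0.07, adjusted p = 0.000424).

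**Figure D2:**
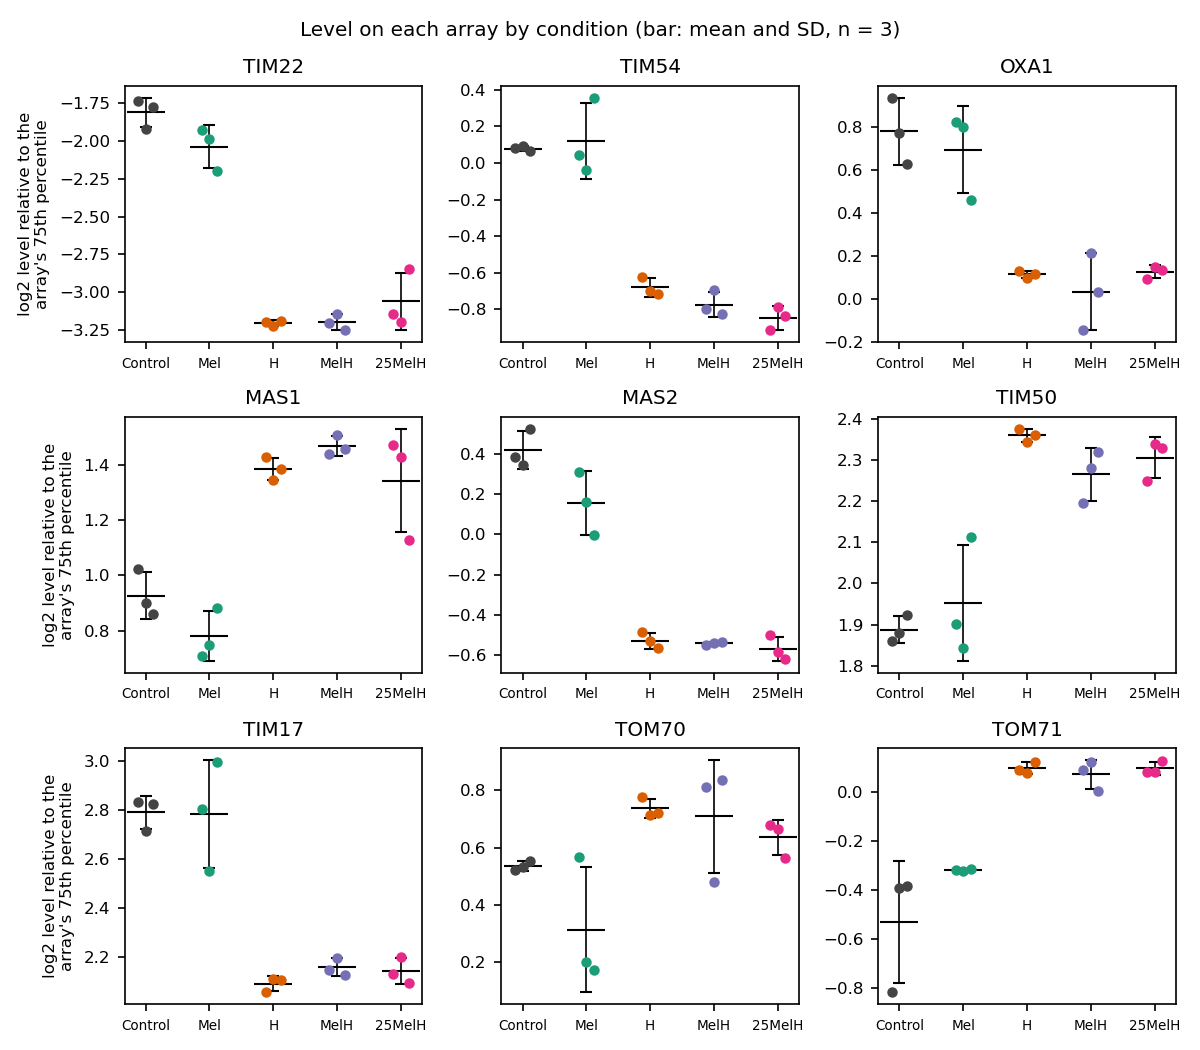
Log2 level relative to the array's 75th percentile on each of 15 arrays for 9 import genes; points are arrays and bars are the mean and SD of 3. *TIM22*, *TIM54*, *OXA1*, *MAS2* and *TIM17* are lower on all stressed arrays and *MAS1*, *TIM50* and *TOM71* higher, though these 3 fall with stress under spike-in scaling, while *TOM70* overlaps between Mel and MelH.

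The genes of the processing peptidase went in opposite directions. This matrix enzyme cleaves presequences and is a dimer of Mas1, the catalytic subunit, and Mas2, which binds the substrate. The level of *MAS1* was 1.02, 0.90 and 0.86 in Control, 0.71, 0.75 and 0.88 in Mel, 1.43, 1.34 and 1.38 in H, 1.44, 1.51 and 1.45 in MelH, and 1.47, 1.43 and 1.13 in 25MelH. The level of *MAS2* was 0.38, 0.35 and 0.52 in Control, 0.31, 0.16 and −0.01 in Mel, −0.49, −0.53 and −0.56 in H, −0.55, −0.54 and −0.53 in MelH, and −0.50, −0.59 and −0.62 in 25MelH. For both genes stressed and unstressed arrays were apart, *MAS1* above and *MAS2* below.

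*MAS1* rose by 0.46 (SE 0.06, adjusted p = 0.000814), 0.69 (SE 0.09, adjusted p = 0.000985) and 0.42 (SE 0.11, adjusted p = 0.0148), and *MAS2* fell by 0.95 (SE 0.06, adjusted p = 6.19e-05), 0.69 (SE 0.11, adjusted p = 0.00179) and 0.99 (SE 0.07, adjusted p = 8.37e-05), while with spike-in scaling both fell. The difference *MAS1* minus *MAS2* within an array, with the Control mean at 0, does not depend on a constant shift of the array. It was −0.17 to 0.13 in Control, −0.11 to 0.38 in Mel, 1.37 to 1.44 in H, 1.48 to 1.54 in MelH and 1.24 to 1.50 in 25MelH. The stressed arrays were separated from the unstressed arrays by more than the whole span of either.

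*OXA1* encodes the insertase that places proteins, including those made by mitochondrial ribosomes, into the inner membrane from the matrix side. Its level was 0.94, 0.77 and 0.63 in Control, 0.82, 0.80 and 0.46 in Mel, 0.13, 0.10 and 0.12 in H, −0.14, 0.21 and 0.03 in MelH, and 0.09, 0.15 and 0.14 in 25MelH. Stressed arrays were lower without overlap, and *OXA1* fell by 0.66 (SE 0.08, adjusted p = 0.000827), 0.66 (SE 0.14, adjusted p = 0.00758) and 0.65 (SE 0.09, adjusted p = 0.00101).

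**Figure D3:**
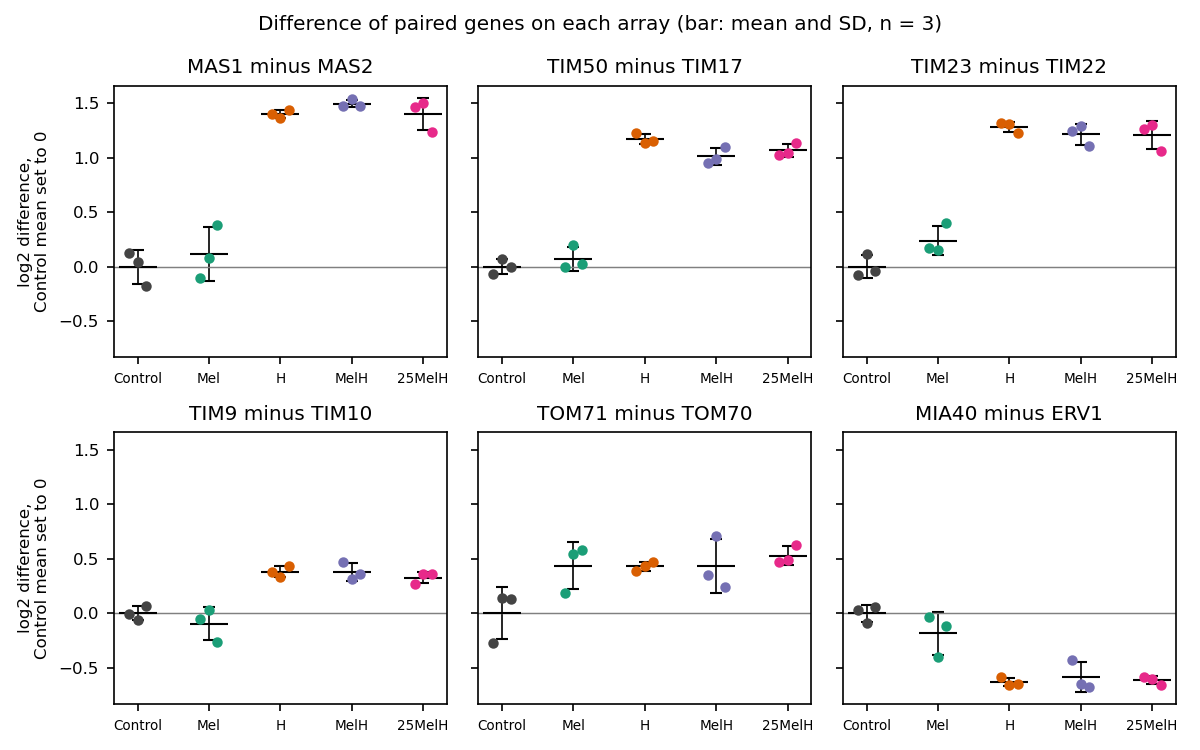
Difference in log2 level between paired import genes on each of 15 arrays, with the mean of the Control arrays set to 0; points are arrays and bars the mean and SD of 3. Stressed arrays stand above unstressed arrays for *MAS1* minus *MAS2*, *TIM50* minus *TIM17*, *TIM23* minus *TIM22* and *TIM9* minus *TIM10*, and below them for *MIA40* minus *ERV1*; *TOM71* minus *TOM70* overlaps between Mel and the stressed conditions. Constant shifts of an array leave these differences as they are, while quantile normalization does not.

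How firmly a call stood differed between genes. In H vs. Control *TIM10*, *MIA40*, *SAM37*, *TIM18*, *TIM22* and *MAS2* kept their call and direction in all 18 alternatives tried, and in MelH vs. Mel *TIM10*, *TIM22*, *TIM54* and *MAS2* did. The alternatives covered scaling, background correction, slide, pairing and leaving out an array, and left aside the matrix with its columns as named. Some could hardly change a member's call, and the counts out of 18 and 19 include them. Each member had 1 probe, so the mean over the probes of a gene was the same value. The matrix paired with the tables it equals holds the same arrays with nearly the same values. In MelH vs. Mel *TOM5*, *TOM20* and *TIM44* each lost the call in 6 of 18 alternatives, and in 25MelH vs. Control *MAS1* did in 6 of 19. In 25MelH vs. Control *TIM44*, *TIM22* and *MAS2* lost the call only with normexp background correction, under which 0 of the 32 genes and 78 of all genes were called. That correction compressed 1 array, 25MelH replicate 2, to an SD over genes of 1.16 against 2.36 to 2.60 on the other arrays. Without it, a setting chosen after seeing the data, 23 members were called, 5 higher and 18 lower, and 4218 of all genes were called.

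**Figure D4:**
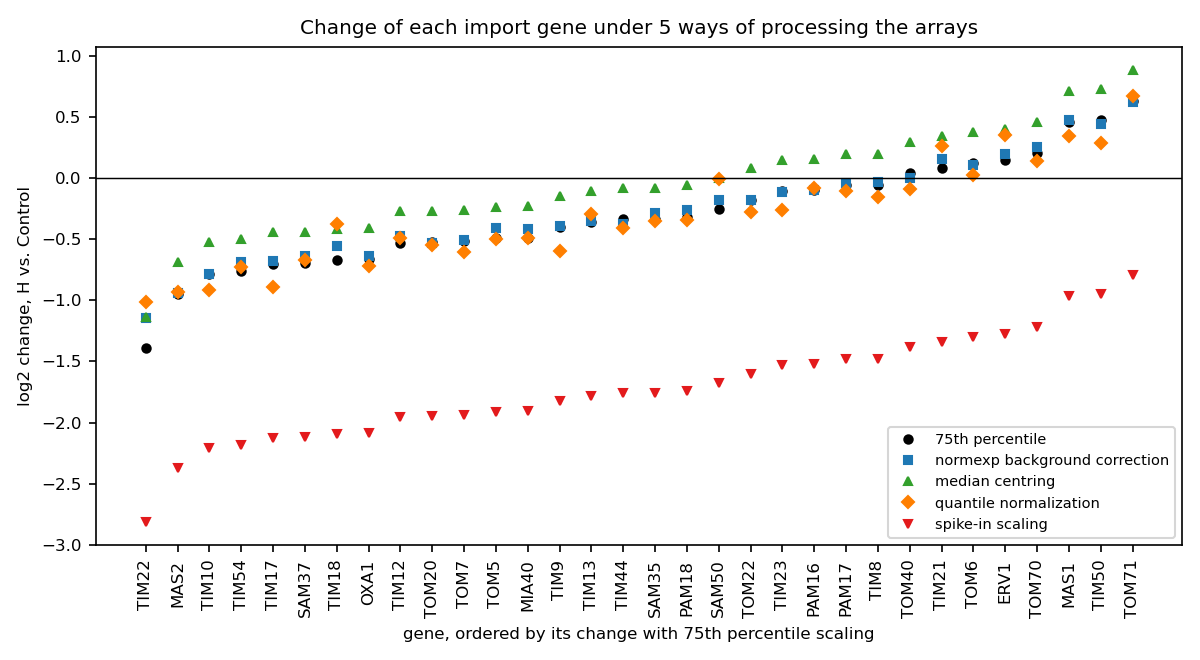
Log2 change in H vs. Control of each of the 32 import genes under 5 ways of processing the arrays, ordered by the change at the 75th percentile scaling. The order of the genes is the same at the 75th percentile, after median centring and with spike-in scaling, but the line of 0 falls at a different gene in each, and with spike-in scaling all 32 lie below it.

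Melatonin alone changed none of the 32 genes past the threshold. In Mel vs. Control 0 members were called, against 0.225% of all genes called higher and 0.145% lower, the median log2 change was −0.06, and 0 members were higher and 2 lower at an unadjusted p under 0.05, against 3.82% and 6.23% of all genes. The 3 genes with the smallest p were *PAM18* at −0.28 (95% interval −0.55 to −0.01, adjusted p = 0.471), *MAS2* at −0.26 (−0.53 to −0.00035, adjusted p = 0.495) and *PAM16* at −0.30 (−0.61 to 0.0032, adjusted p = 0.501). *PAM18* had levels of 0.25, 0.30 and 0.27 in Control and −0.19, 0.19 and −0.02 in Mel. Those of *PAM16* were 0.01, −0.09 and −0.23 in Control and −0.22, −0.38 and −0.62 in Mel. *PAM18* did not overlap between the conditions, and *PAM16* did. For 26 of the 32 genes the 95% interval lay within 0.5 of 0 on the log2 scale.

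Under stress melatonin also gave 0 calls among the import genes. In MelH vs. H, where 0% of all genes were called, 3 members were higher and 0 lower at an unadjusted p under 0.05, against 7.15% and 5.22% of all genes, and the median change was 0.07. *TIM8* differed by 0.33 (SE 0.10, 95% interval 0.09 to 0.56, adjusted p = 0.346), with levels of 0.84, 0.79 and 0.82 in H and 1.29, 0.94 and 1.20 in MelH. *PAM17*, which organises the motor, differed by 0.16 (SE 0.05, adjusted p = 0.346), with 0.32, 0.35 and 0.34 in H and 0.52, 0.55 and 0.43 in MelH. *TOM7* differed by 0.21 (SE 0.07, adjusted p = 0.367), with 0.57, 0.54 and 0.62 in H and 0.66, 0.85 and 0.87 in MelH. Each of these 3 genes was higher on every MelH array than on every H array, without passing the adjusted test. In all, 13 members had MelH wholly above H and 1 wholly below it, against 12.3% and 9.05% of all genes.

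The higher dose of melatonin under stress gave the same count. In 25MelH vs. H, which shares the H arrays with MelH vs. H, 0 members and 0% of all genes were called, 5 members were higher and 1 lower at an unadjusted p under 0.05, against 9.69% and 6.54% of all genes, and the median change was 0.06. *PAM17* was 0.20 higher (SE 0.04, adjusted p = 0.187), with levels of 0.47, 0.56 and 0.57 in 25MelH. *TIM54* was lower, at −0.17 (SE 0.05, adjusted p = 0.252), and *TOM6* was 0.14 higher (SE 0.05, adjusted p = 0.276), with levels of 0.97, 0.94 and 0.93 in H and 1.18, 1.01 and 1.09 in 25MelH. None of the 6 passed the adjusted test, and 10 members had 25MelH wholly above H and 4 wholly below it, against 14.7% and 10.5% of all genes.

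Between the doses, in 25MelH vs. MelH, 0 members were called and 0 had an unadjusted p under 0.05, against 0.787% of all genes higher and 0.514% lower at the unadjusted threshold, and the smallest adjusted p of a member was 0.999. The smallest p belonged to *TIM8* at −0.22 (95% interval −0.48 to 0.03), *TIM23* at 0.13 (−0.08 to 0.35) and *TIM9* at −0.09 (−0.24 to 0.07). For all 32 genes the interval lay within 0.5 of 0.

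The contrast of the melatonin effect with stress and without it, (MelH − H) − (Mel − Control), is also the contrast of the stress effect with melatonin and without it. It gave 0 calls among the members, against 0.145% of all genes higher and 0.193% lower, with a smallest adjusted p of 0.393. At an unadjusted p under 0.05, 5 members were above 0 and 0 below, against 5.82% and 4.03% of all genes. They were *TIM8* at 0.39 (95% interval 0.07 to 0.70), *PAM16* at 0.37 (0.06 to 0.68), *MIA40* at 0.30 (0.02 to 0.59), *TIM13* at 0.26 (0.01 to 0.51) and *MAS1* at 0.23 (0.02 to 0.44). Of the 32 values 24 were above 0, with a median of 0.11, against 3316 of all 6224 genes and a median of 0.02. Of mitochondrial ribosomal protein genes 48 of 53 were above 0, with a median of 0.14. Of respiratory chain and ATP synthase genes 28 of 29 were, with a median of 0.38. The genes of the intermembrane space among the 5 members, *TIM8*, *TIM13* and *MIA40*, had values in Mel vs. Control of −0.06, −0.15 and −0.16. In MelH vs. H they had 0.33, 0.11 and 0.14. *TIM9*, *TIM10*, *TIM12* and *ERV1*, also of that space, had 0.23, 0.13, 0.01 and 0.07 in the contrast, each with an unadjusted p above 0.05.

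**Figure D5:**
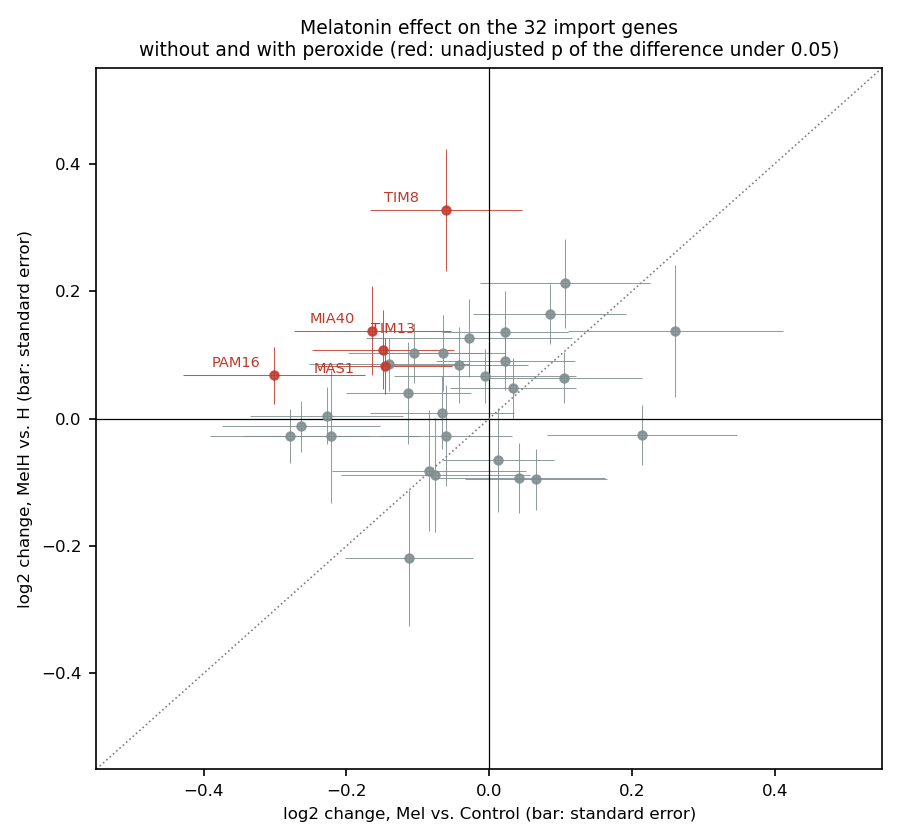
Log2 change of the 32 import genes with 5 µM melatonin, without stress on the x axis (Mel vs. Control) and with stress on the y axis (MelH vs. H); points are genes, bars are standard errors, the dotted line marks equal changes, and red marks the 5 genes with an unadjusted p under 0.05 for the difference. None of the 32 genes was called on either axis or for the difference. Above the dotted line, where the difference is above 0, lie 24 of them, and the difference was above 0 for 3316 of all 6224 genes.

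Other genes that serve import were read from a list of 27 genes chosen for their role. In H vs. Control 13 of them were called higher and 9 lower, in MelH vs. Mel 9 and 6, and in 25MelH vs. Control 13 and 10. That is 48.1% higher and 33.3% lower in H vs. Control, where 27.3% and 41.1% of all genes were called. In MelH vs. Mel it is 33.3% and 22.2%, against 21.1% and 31.5% of all genes. In 25MelH vs. Control it is 48.1% and 37%, against 26.7% and 38.9%. Among those that rose in H vs. Control were chaperone genes: *SSA1*, a cytosolic Hsp70, by 1.06 (SE 0.13, adjusted p = 0.000782), *YDJ1*, its J-protein partner, by 0.90 (SE 0.04, adjusted p = 3.06e-05), and *MDJ1*, a J-protein of the matrix, by 0.70 (SE 0.05, adjusted p = 8.58e-05). *SSC1*, the Hsp70 of the import motor, rose by 0.20 in H vs. Control (SE 0.06, adjusted p = 0.0212) and did not pass in MelH vs. Mel (0.14, adjusted p = 0.312). *HSP60*, the matrix chaperonin, rose by 0.38 (SE 0.05, adjusted p = 0.00131). *SSA1*, *YDJ1* and *MDJ1* were named for the size of their change, and *SSC1* and *HSP60* whatever they did. Other genes of the list went the other way. *ZIM17* was lower on all 9 stressed arrays than on all 6 unstressed arrays. *MGE1* had levels of 1.36, 1.26 and 1.32 in Control and 1.20, 1.24 and 1.14 in H. Its levels overlapped between Mel (1.36, 1.18 and 1.01) and MelH (1.30, 1.15 and 1.35). With spike-in scaling 1 of the 27 genes was called higher and 26 lower in H vs. Control, and these 5 chaperone genes fell (*SSA1* −0.36, *YDJ1* −0.52, *MDJ1* −0.72, *SSC1* −1.22, *HSP60* −1.04).

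The largest rise on that list was that of *CIS1*, which recruits the extractor Msp1 to the TOM complex when import stalls. It rose by 1.92 (SE 0.10, adjusted p = 3.12e-05) in H vs. Control, 2.39 (SE 0.15, adjusted p = 3.81e-05) in MelH vs. Mel and 2.72 (SE 0.12, adjusted p = 2.13e-05) in 25MelH vs. Control. Its probe was dim, at 53.6 to 294.4 intensity units, but well above background on all 15 arrays, and with spike-in scaling its rise in H vs. Control was 0.50 (adjusted p = 0.0118). The largest fall was that of *COX18*, an insertase related to Oxa1 that acts on a cytochrome oxidase subunit, with −1.28 (SE 0.04, adjusted p = 1e-05), −1.26 (SE 0.12, adjusted p = 0.00021) and −1.29 (SE 0.08, adjusted p = 6.71e-05). *ICP55*, a peptidase that trims some proteins after Mas1 and Mas2 have cut them, fell by 0.71 (SE 0.05, adjusted p = 8.76e-05) in H vs. Control.

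At the 75th percentile scaling the import list lay between 2 other lists of mitochondrial genes. Of 53 mitochondrial ribosomal protein genes 0 were called higher and 46 lower in H vs. Control, with a median log2 change of −0.47. Of 29 nuclear genes for respiratory chain and ATP synthase subunits 22 were higher and 2 lower, with a median of 0.30. With spike-in scaling all 53 and all 29 were lower, with medians of −1.90 and −1.12. The lists were not tested against each other.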

How the data were processed

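The scanner tables of the 15 arrays hold, as deposited by the authors, a processed signal that is a linear intensity from which Feature Extraction 12.0.1.1 had subtracted the background. Spot flags (well above background, saturated, outlier) in these deposited tables were used as marks. The authors also deposited a matrix of normalised log2 values. Of its 15 columns, 6 equal the scanner table they are named for and 9 that of another sample (columns named Mel hold MelH, those named H hold Mel, those named MelH hold H), so it served only as an alternative. Groups came from the sample labels.

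Outlier and control spots were left out, log2 signals of a probe's spots were averaged, and each array's 75th percentile was subtracted. Of several probes of a gene the brightest was kept. No dim probes were removed. Gene symbols came from a RefSeq gene table of a newer build than the array's, so no coordinates or sequences were used. Each pair of conditions was fitted on its 6 arrays with limma 3.58.1 under R 4.3.3 (lmFit, eBayes, two-sided), adjusted over 6224 genes, and the contrast between melatonin effects on 12 arrays. Within-slide fits used all conditions of the slide for the spread. The scripts were tested on simulated data. The genes and lists were chosen with earlier results of these data known. Values on single arrays are given for the 6 called genes with the largest change per comparison, or the 3 with the smallest p where none was called, and for 10 genes set by role. *TIM50* was added after its values were seen.

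Same-numbered arrays deviated together (r over 0.1 in each of 3 pairs) in Mel vs. Control (0.106 to 0.280) and MelH vs. H (0.143 to 0.307), a pairing read from the data. Across conditions 13 of 30 same-numbered pairs had r over 0.1, with a highest r of 0.326. Of pairs with different numbers 16 of 60 did, with a highest r of 0.528, so such values do not establish a pairing. With the replicate number as a block 0 members were called in these comparisons, as without it. Calls over all genes went from 23 to 9 in Mel vs. Control and stayed at 0 in MelH vs. H. Arrays are few, which limits precision.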

Additional observations from a re-analysis of the deposited data

How the results depend on the processing

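Counts of called members are given as all calls. With matrix columns as named there were 0 in H vs. Control, 0 in MelH vs. Mel, 22 in Mel vs. Control, 18 in MelH vs. H and 18 in 25MelH vs. H, because those columns hold other samples. Over all genes these counts were 22, 0, 3890, 3481 and 3435. Within slide 2 there were 6, 7 and 3 in H vs. Control, MelH vs. Mel and 25MelH vs. Control, where 1 or both conditions had 1 array and the spread came from all conditions on the slide. Median centring gave 19 in MelH vs. Mel (11 higher, 8 lower) and 25 in 25MelH vs. Control (13 higher, 12 lower), so that most calls were rises, and spike-in scaling gave 31 in MelH vs. Mel. Over all genes these counts were 3594, 4282 and 5278. Normexp used the median spot signal, since the planned mean signal was not in the tables, and gave 0 in 25MelH vs. Control, with 78 over all genes. At an unadjusted p there were 2 in Mel vs. Control, 3 in MelH vs. H, 6 in 25MelH vs. H and 5 in the contrast of melatonin effects. Over all genes these counts were 626, 770, 1010 and 613. Leaving out an array gave 23 to 26 in H vs. Control, 11 to 17 in MelH vs. Mel (11 without MelH replicate 1, 12 or more otherwise) and 19 to 24 in 25MelH vs. Control, and 0 elsewhere. Over all genes it gave 3820 to 4237, 2324 to 3172 and 3575 to 3927 in the same order.

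Among the genes picked in each comparison for the size of their change or their p, the sign turned with matrix columns as named for *TIM54* (0.035) and *SAM37* (0.015) in H vs. Control, *TIM54* (0.086), *MAS2* (0.0042), *MAS1* (−0.0901) and *OXA1* (0.0735) in MelH vs. Mel, *PAM17* (−0.14) and *TOM7* (−0.61) in MelH vs. H, *TIM8* (0.10) in 25MelH vs. MelH and *TIM8* (−0.27) in the contrast. It turned with spike-in scaling for *MAS1* (−0.31) in MelH vs. Mel, *TOM6* (−0.0037) in 25MelH vs. H and *TIM23* (−0.16) in 25MelH vs. MelH, with normexp for *TIM23* (−0.0010) in 25MelH vs. MelH, and within slide 2 for *TIM9* (0.032) in 25MelH vs. MelH. Called members outside that pick turned as well. With spike-in scaling *TOM71* and *TIM50* turned in each stress comparison. With it *TOM70*, *ERV1* and *MAS1* turned in H vs. Control, *TIM21* in MelH vs. Mel, and *ERV1*, *TIM21* and *MAS1* in 25MelH vs. Control. Median centring turned *TOM22*, *SAM50* and *TIM23* in H vs. Control, and *SAM35* and *SAM50* in 25MelH vs. Control. Normexp and quantile normalization turned *SAM50* in the latter. Matrix columns as named turned others. Apart from the matrix, the cause of these turns was not tested.

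With the replicate number as a block 23 members were called in H vs. Control, 17 in MelH vs. Mel, 21 in 25MelH vs. Control and 0 in the other comparisons. Over all genes that block gave 3915, 3245 and 3845 calls in the first 3 of these. Outside Mel vs. Control and MelH vs. H 0 to 2 of 3 same-numbered pairs had r over 0.1. A block within each stress level, chosen after seeing the data, gave 0 calls among the members and 1 over all genes in the contrast. Intervals rest on 3 arrays a condition, and levels are shares of an array's signal, not copies per cell.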
